A study of Mus musculus with 6 samples.

Results

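Keratin genes and genes of epithelial cells were followed in bulk RNA-seq libraries of inguinal white adipose tissue (IWAT), a subcutaneous fat depot of the mouse groin. Members were every gene whose symbol is Krt followed by a number alone, together with 11 genes named for their use as epithelial markers (*Epcam*, *Cdh1*, *Cldn3*, *Cldn4*, *Cldn7*, *Trp63*, *Dsp*, *Pkp1*, *Elf5*, *Csn3* and *Wfdc18*), provided that the gene had at least 1 count in any library. This gave 60 genes, 49 keratins and 11 others, of 32664 genes with a count. *Krt76* matched the naming rule but had 0 counts in every library, and *Krt42*, *Krt88* and *Csn3* were just inside the rule with 1 count each. Of the 60 genes, 46 had at least 100 counts summed over the libraries, 53 had at least 10, and 7 had fewer than 10.

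IWAT of 6 male C57BL/6J mice aged 4 weeks was sequenced, with 3 wild-type mice (WT, Ebf2+/+) and 3 heterozygous mice (HET, Ebf2 p.E165X/+), all kept on chow. The *Ebf2* variant is a premature stop codon placed in the germ line by CRISPR/Cas9, so HET mice carried it in skin and other epithelia as well as in adipocytes. Each library is named by its genotype and number (WT1 to WT3 and HET1 to HET3), and no source used here ties mice of the 2 genotypes to the same litter. Libraries held 106820505 to 135039488 counts, and total counts did not differ detectably between genotypes (two-sided exact permutation test, *P* = 0.9, where 0.1 is the smallest *P* this design allows). A count of 0 allows a level of up to 3 counts, which is 0.0234 to 0.0285 CPM (counts scaled to a common library size) depending on the library, for counting error only.

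The libraries matched their labels for sex, and all held adipocyte markers. The 6 adipocyte markers, led by *Lpl*, summed to between 9940 CPM in HET3 and 17200 CPM in WT2. Skeletal muscle markers set HET3 apart, at 41000 CPM against 721 to 7180 CPM in the other libraries. The Y-linked gene *Ddx3y* had 15615 to 21275 counts per library. The target gene *Ebf2*, an early B-cell factor of the adipocyte lineage, had 4603, 4357 and 4611 counts in WT1 to WT3 and 2635, 2863 and 2697 in HET1 to HET3. All 3 HET libraries were below all 3 WT libraries. This corresponded to 39.0 ± 2.14 CPM in WT and 22.3 ± 1.04 CPM in HET (SD, n = 3), a log2 fold change of -0.81 (SE 0.076), with an adjusted *P* of 0.0596 in edgeR and 1.23e-13 in DESeq2.

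Keratins are the intermediate filament proteins of epithelial cells, and a filament is built from a type I and a type II keratin paired together. The pairs mark place and stage: *Krt8* with *Krt18* in simple epithelia, *Krt5* with *Krt14* in the basal layer of stratified epithelia, *Krt1* with *Krt10* in the layers above it, and separate sets in the inner root sheath and in the shaft of the hair. Fat cells are not epithelial, while inguinal fat lies under hairy skin and holds lymph nodes and, in females, the mammary gland. Of the 49 keratins, 26 were type I and 23 type II, with 25 genes in the cluster on chromosome 11 and 24 in the cluster on chromosome 15. In bulk tissue, fewer cells of a type and less RNA per cell cannot be told apart.

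Shown are the promoters of 4 keratins that stand for 4 of the groups whose levels set the libraries apart. They are those of *Krt5* for the basal layer, *Krt71* for the inner root sheath, *Krt34* for the hair shaft and *Krt8* for simple epithelia. Each runs from 250 bases before the RefSeq start to 50 bases after it on the minus strand of GRCm38.p6, at chr15:101712856-101713155, chr15:101743048-101743347, chr11:100041505-100041804 and chr15:102004293-102004592 in that order. In GENCODE M21 (GRCm38) the genes span chr15:101707070-101712898 (*Krt5*, ENSMUSG00000061527), chr15:101733949-101743109 (*Krt71*, ENSMUSG00000051879), chr11:100037347-100041554 (*Krt34*, ENSMUSG00000043485) and chr15:101996698-102004482 (*Krt8*, ENSMUSG00000049382). Capitals mark the letters TATAAA, the core of a TATA box, searched on both strands.
Krt5: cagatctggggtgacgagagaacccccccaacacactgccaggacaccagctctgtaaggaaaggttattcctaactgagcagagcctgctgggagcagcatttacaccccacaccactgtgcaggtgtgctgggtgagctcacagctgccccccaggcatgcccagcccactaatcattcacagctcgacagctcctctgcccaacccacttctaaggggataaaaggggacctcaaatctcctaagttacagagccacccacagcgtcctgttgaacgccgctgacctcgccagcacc
Krt71: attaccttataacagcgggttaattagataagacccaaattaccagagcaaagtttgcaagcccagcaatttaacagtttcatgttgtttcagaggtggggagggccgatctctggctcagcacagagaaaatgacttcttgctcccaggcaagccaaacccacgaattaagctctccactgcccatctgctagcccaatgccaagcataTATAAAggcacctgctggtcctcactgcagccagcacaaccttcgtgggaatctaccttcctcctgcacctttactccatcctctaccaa
Krt34: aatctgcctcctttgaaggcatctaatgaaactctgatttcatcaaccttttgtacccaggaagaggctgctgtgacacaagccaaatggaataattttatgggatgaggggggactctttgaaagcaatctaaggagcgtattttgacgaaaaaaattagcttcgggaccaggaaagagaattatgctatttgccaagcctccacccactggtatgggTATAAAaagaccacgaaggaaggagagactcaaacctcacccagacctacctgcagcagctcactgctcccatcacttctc
Krt8: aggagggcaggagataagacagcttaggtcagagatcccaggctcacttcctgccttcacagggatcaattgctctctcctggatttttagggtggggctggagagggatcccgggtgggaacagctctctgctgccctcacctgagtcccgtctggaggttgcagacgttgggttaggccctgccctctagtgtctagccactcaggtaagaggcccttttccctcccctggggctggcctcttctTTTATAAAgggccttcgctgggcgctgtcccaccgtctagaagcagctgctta
The match began 40 bases before the start in *Krt71* and 31 bases before it in *Krt34*. *Krt8* had a pair of overlapping matches on opposite strands, at 3 and 1 bases before the start, and in *Krt5* these letters were not in this window. TATAAA was present in 18 of the 41 member promoters with a RefSeq entry (43.9%) and in 14.2% of all 27025 promoters of the same length. A match is a description of the letters only.

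The members split the 6 libraries into 2 sets of 3 that crossed the genotypes. Summed over all 60 genes, their level was 397 CPM in WT1, 34.3 in WT2, 594 in WT3, 436 in HET1, 33.7 in HET2 and 47.5 in HET3. WT1, WT3 and HET1 were thus far above WT2, HET2 and HET3, and each genotype had libraries at both levels. Even where highest, in WT3, these genes held 0.0594% of the counts, against 0.00338% in WT2. The number of members with any count was 47, 36 and 54 in WT1 to WT3 and 56, 45 and 39 in HET1 to HET3, again higher in WT1, WT3 and HET1.

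Among the 46 members with at least 100 counts, 18 (39.1%) had WT1, WT3 and HET1 each at least 5 times as high as every other library, a pattern seen in 0.632% of the 19460 genes with that many counts. Another pattern, seen in 14 members (30.4%), had WT3 and HET1 each at least 5 times as high as every other library, WT1 included, against 0.668% of all genes. *Krt27* met both criteria. WT1, WT3 and HET1 were the 3 highest libraries for 29 members (63.0%), against 5.03% of all genes. By contrast, only 5 members (10.9%) stayed within 3-fold over the 6 libraries, as did 89.5% of all genes. These criteria were chosen after the members' values had been seen, so the shares are descriptions.

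**Figure D1:**
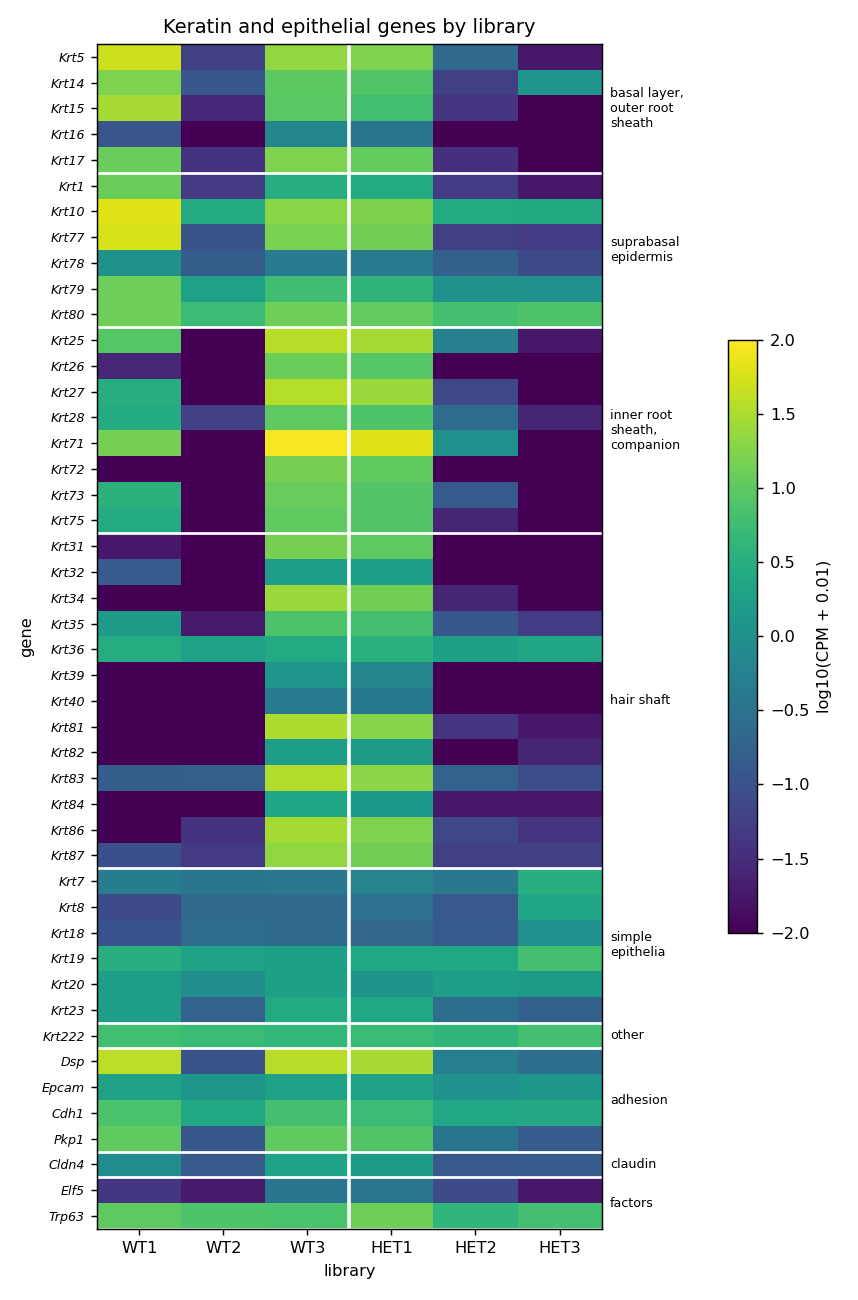
Level of each member with at least 100 counts in each library (colour, log10 of CPM), with genes in rows grouped by layer and the 3 WT and 3 HET libraries in columns. Most epidermal and inner root sheath keratins are high in WT1, WT3 and HET1, most hair shaft keratins are high in WT3 and HET1, and *Krt7*, *Krt8* and *Krt18* are highest in HET3.

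Keratins of the basal layer and outer root sheath were abundant in WT1, WT3 and HET1 and close to 0 elsewhere. *Krt5*, the type II keratin of basal cells, had 6043 counts in WT1, 5 in WT2, 2753 in WT3, 1964 in HET1, 28 in HET2 and 1 in HET3. Its partner *Krt14* had 2044, 12, 1223, 952, 6 and 157 counts in the same order. *Krt14* in HET3 was the exception to the split, since the other 4 genes of this layer had at most 1 count there. *Krt15*, a basal keratin also found in the follicle bulge, had 3593, 2, 1173, 715, 4 and 0 counts. *Krt17*, of the outer root sheath, had 1466, 3, 2059, 1336, 3 and 0 counts, and was higher in WT3 than in WT1, unlike *Krt5*, *Krt14* and *Krt15*. *Krt16*, a keratin of follicles and wounded or thickened epidermis, had 13, 0, 82, 40, 0 and 0 counts. Summed, the 5 genes reached 110 CPM in WT1, 58.8 in WT3 and 43.3 in HET1, against 0.209 in WT2, 0.328 in HET2 and 1.23 in HET3. The ratio of *Krt5* to *Krt14* counts was 2.96 in WT1, 2.25 in WT3 and 2.06 in HET1.

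Summed, keratins of the suprabasal epidermis showed the same split, with WT1 clearly highest, although *Krt80* was highest in WT3 and *Krt9* in HET1. *Krt10*, the type I keratin of differentiating keratinocytes, had 7836, 290, 2408, 1910, 344 and 346 counts in WT1 to WT3 and HET1 to HET3. It kept 290 to 346 counts in the low libraries, while its partner *Krt1* had 1495, 4, 383, 319, 5 and 1 counts and was nearly absent there. *Krt77* had 6778, 10, 1963, 1561, 6 and 5 counts. *Krt79*, a keratin of the hair canal and sebaceous ducts, had 1553, 207, 722, 463, 143 and 134 counts, a shallower contrast. *Krt78* had 133, 15, 51, 52, 20 and 9 counts. *Krt80* varied least of this layer, with 1550, 552, 1644, 1245, 791 and 997 counts. *Krt9*, of palm and sole skin, and *Krt2* had 17 and 2 counts in all. Summed over the 8 genes, WT1 was at 161 CPM, WT3 at 57.9, HET1 at 48.0, and WT2, HET2 and HET3 at 10.3, 10.5 and 11.7. The ratio of *Krt1* to *Krt10* counts was 0.191 in WT1, 0.159 in WT3 and 0.167 in HET1.

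Many genes of epidermal differentiation had the same split. In a list drawn up for epidermal differentiation, all 16 genes had a count and 15 had at least 100 counts. Of those 15, 11 had WT1, WT3 and HET1 each at least 5 times as high as every other library. Those 3 libraries were highest for 13 of the 15. The 11 included the keratin *Krt6a* (226, 0, 454, 251, 0 and 0 counts), which was higher in WT3 than in WT1, as was *Krt17* of the outer root sheath. The list, led by *Cdsn*, a protein of cornified desmosomes, summed to 148, 58.4 and 111 CPM in WT1 to WT3 and 103, 58.0 and 49.5 CPM in HET1 to HET3. *Cdsn* itself (5817, 3813, 4548, 4285, 4198 and 3214 counts) and *Sbsn* (3508, 1345, 2565, 2237, 1763 and 1874) had those libraries highest by CPM with a shallower contrast. *Tgm1*, a transglutaminase that cross-links the cornified envelope, had 779, 776, 1063, 1081, 1090 and 1039 counts and did not separate the libraries.

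Summed by layer, the inner root sheath keratins had the highest level in WT3 and HET1, and *Krt71* was the most abundant member there. *Krt71*, a type II keratin of this sheath and the member with the most counts, had 1795 counts in WT1, 0 in WT2, 11055 in WT3, 7466 in HET1, 125 in HET2 and 0 in HET3. Its type I neighbours in the sheath moved alongside it. *Krt25* had 1061, 0, 4689, 3283, 69 and 1 counts, and *Krt27* had 371, 0, 4503, 2888, 8 and 0. HET2 was the only low library with more than 20 counts of *Krt71* or *Krt25*, and its ratio of *Krt71* to *Krt25* (1.81) lay between those of WT1 (1.69) and of HET1 and WT3 (2.27 and 2.36). *Krt28* had 352, 5, 1269, 899, 30 and 2 counts, and *Krt73* had 440, 0, 1449, 966, 16 and 0. *Krt75*, of the companion layer next to the sheath, had 349, 0, 1330, 983, 2 and 0 counts. These 6 genes were present in WT1 at lower levels than in WT3.

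*Krt72* and *Krt26*, also keratins of the inner root sheath, differed from those 6 genes in WT1. *Krt72* had 0, 0, 1846, 1199, 0 and 0 counts, and *Krt26* had 2, 0, 1583, 1024, 0 and 0. Both were thus at or near 0 in WT1, where *Krt71* had 1795 counts. The ninth gene of the layer, *Krt74*, which GENCODE M21 lists as a transcribed pseudogene, was like them, with 0, 0, 13, 11, 0 and 0 counts. Summed over the layer, the levels were 36.4, 0.0474 and 224 CPM in WT1 to WT3 and 162, 2.0 and 0.0234 CPM in HET1 to HET3.

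Hair shaft keratins were found almost entirely in WT3 and HET1. *Krt81*, a type II keratin of the shaft cortex, had 0, 0, 4055, 2153, 4 and 1 counts in WT1 to WT3 and HET1 to HET3. *Krt83* had 17, 16, 4349, 2322, 21 and 10 counts, *Krt86* had 0, 3, 3541, 1958, 8 and 4, and *Krt87* had 10, 4, 2659, 1564, 6 and 6. These 4 genes are close copies of each other, so the division of reads among them is uncertain. Of the type I shaft keratins, *Krt34* had 0, 0, 3063, 1601, 2 and 0 counts and *Krt31* had 1, 0, 1876, 1193, 0 and 0. The ratio of *Krt81* to *Krt31* counts was 2.16 in WT3 and 1.80 in HET1. WT1, which was above WT3 in summed basal and suprabasal keratins, was near the low libraries for these shaft keratins.

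The less abundant shaft keratins repeated this. *Krt84* had 0, 0, 279, 159, 1 and 1 counts, and *Krt82*, of the shaft cuticle, had 0, 0, 213, 172, 0 and 2. *Krt39* had 0, 0, 155, 79, 0 and 0 counts, and *Krt40* had 0, 0, 56, 47, 0 and 0. *Krt32*, another cuticle keratin, kept 16 counts in WT1 beside 204 in WT3 and 195 in HET1, with 0 in WT2, HET2 and HET3. *Krt35*, which starts low in the shaft, was intermediate in WT1, with 182, 1, 959, 766, 14 and 5 counts. *Krt36* stood apart from its family, at 357, 204, 348, 416, 232 and 294 counts. Summed, the 13 shaft keratins were at 176 CPM in WT3 and 109 in HET1, against 4.85 in WT1, 2.16 in WT2, 2.31 in HET2 and 2.52 in HET3.

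Keratin-associated proteins split the same way, and other hair genes did so in part. Keratin-associated proteins, the matrix of the hair shaft, had a count for 57 of 58 genes, and their summed counts were 21, 1, 52688, 30060, 42 and 2 in WT1 to WT3 and HET1 to HET3. All 51 of these genes with at least 100 counts had WT3 and HET1 each at least 5 times as high as every other library, led by *Krtap7-1* (0, 0, 5347, 2818, 7 and 0 counts). That list was chosen after the keratin values had been seen. In a list of 8 follicle genes, 4 had that pattern, including the shaft keratins *Krt33a* (0, 0, 3558, 2065, 3 and 1 counts) and *Krt33b* (0, 0, 2028, 1106, 2 and 2). In 4 genes of the list WT1, WT3 and HET1 were each at least 5 times as high as every other library. The most abundant was *Tchh*, which encodes trichohyalin of the inner root sheath, with 949, 26, 24501, 13352, 118 and 50 counts. It met both criteria and made up most of the list, which summed to 14.9, 2.04 and 257 CPM in WT1 to WT3 and 156, 5.18 and 2.95 CPM in HET1 to HET3.

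WT3 and HET1, from different genotypes, held the layers in similar proportion. For genes with at least 100 counts in WT3, the HET1 level as a multiple of WT3 had a median of 0.73 for the basal layer (4 genes), 0.85 for the suprabasal layer (5 genes), 0.719 for the inner root sheath (8 genes) and 0.62 for the shaft (12 genes). WT1 did not: its level as a multiple of WT3 had a median of 1.99 for the basal layer, 3.36 for the suprabasal layer and 0.2 for the inner root sheath. For the shaft, 6 of the 12 genes had 0 counts in WT1, so no median ratio is given. WT1 was at least 2 times as high as every other library for 7 members (15.2% against 0.524% of all genes), namely *Krt1*, *Krt5*, *Krt10*, *Krt15*, *Krt77*, *Krt78* and *Krt79*.

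**Figure D2:**
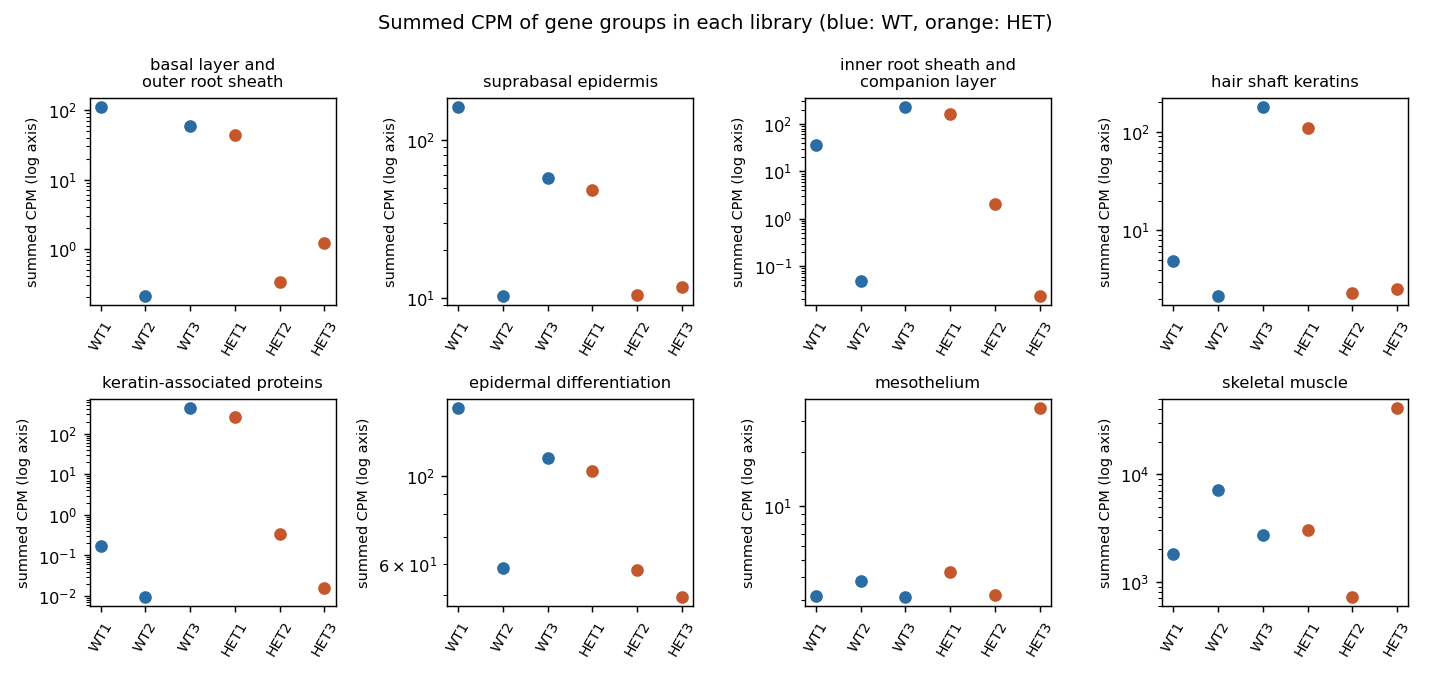
Summed CPM (log axis) of gene groups in each library, with WT in blue and HET in orange and 1 point per library. Basal and suprabasal keratins are high in WT1, WT3 and HET1, hair shaft and keratin-associated genes are high in WT3 and HET1, and mesothelial markers are highest in HET3.

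Compared per kilobase of exon, the mean level over the 6 libraries was highest for *Krt71* (12.9 CPM per kb), followed by *Krt10* (8.62), *Krt27* (6.93), *Krt5* (6.81) and *Krt25* (6.33). Within each of these genes the level ranged over the libraries by more than the step to the next gene, so their order does not hold up against that spread. The study's methods name a 3′ library kit and the labels another kit, and in 3′ libraries counts do not scale with length.

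*Dsp* and *Pkp1*, of the desmosome, followed the epidermal keratins, whereas *Cdh1* and *Epcam* varied less. *Dsp* (desmoplakin), which ties keratin filaments to desmosomes, had 4799, 10, 4613, 3450, 65 and 35 counts in WT1 to WT3 and HET1 to HET3. *Pkp1*, a plakophilin of stratified epithelia, had 1262, 12, 1287, 939, 43 and 17. WT1 and WT3 were nearly equal for both genes. *Cdh1* (E-cadherin) had 894, 258, 805, 612, 297 and 337 counts, and *Epcam*, a surface protein of many epithelia, had 237, 138, 237, 229, 129 and 168, so that each was highest in WT1, WT3 and HET1 but present in all 6 libraries.

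In a list of 11 other desmosomal genes, 3 had WT1, WT3 and HET1 each at least 5 times as high as every other library. The most abundant were *Jup* (plakoglobin), with 14495, 11273, 14513, 12968, 12520 and 12741 counts and the desmosomal cadherins *Dsc3*, with 4275, 4075, 5407, 5262, 5587 and 4519, and *Dsg2*, with 1387, 1435, 1697, 2050, 2095 and 1500. These 3 did not separate the libraries as *Dsp* and *Pkp1* did. Of 12 other junction genes, 11 had at least 100 counts, and 1 of those 11 showed the 5-fold pattern. The most abundant, *F11r*, had 7833, 7187, 8197, 7169, 8086 and 6732 counts.

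Of the claudins, which seal tight junctions, *Cldn4* had 104, 13, 251, 188, 15 and 17 counts and followed WT1, WT3 and HET1. *Cldn3* and *Cldn7* had 72 and 64 counts in all, at 2 to 18 and 5 to 17 per library. *Trp63*, the transcription factor of basal epithelial cells, had 1217, 824, 918, 1541, 540 and 809 counts. It was present in every library, including those with almost no *Krt5*, from 4.32 CPM in HET2 to 13.3 CPM in HET1. *Elf5*, a factor of the mammary and follicle lineages, had 4, 1, 43, 45, 9 and 1 counts, highest in WT3 and HET1. Of 14 other epithelial regulators, 11 had at least 100 counts, and 4 of those 11 showed the 5-fold pattern of WT1, WT3 and HET1. The most abundant was *Grhl1*, with 976, 609, 1524, 1041, 713 and 575 counts.

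Mammary secretory genes were at the edge of detection in these male mice. *Wfdc18*, a secreted mammary protein, had 9, 2, 5, 6, 6 and 10 counts, and the casein gene *Csn3* had 1 count, in HET3. In a list of 11 milk genes, *Csn1s2a* was at 0 in every library and the list summed to between 1.61 and 2.22 CPM. The most abundant was *Muc1*, with 128 to 157 counts per library. *Muc15*, named after its values were seen, was the exception, with 82, 2, 68, 44, 7 and 6 counts and so the split of the epidermal keratins.

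Keratins of simple epithelia behaved differently again, with HET3 highest. *Krt8* had 9, 23 and 28 counts in WT1 to WT3 and 35, 15 and 288 in HET1 to HET3, and its partner *Krt18* had 11, 25, 28, 23, 16 and 130. *Krt7*, a type II keratin of ducts and of mesothelium, had 56, 37, 49, 69, 49 and 408 counts. HET3 was at least 2 times as high as every other library for these 3 members (6.52%, against 3.61% of all genes). *Krt19*, the smallest type I keratin, had 396, 213, 223, 281, 311 and 805 counts and was also highest in HET3. The ratio of *Krt8* to *Krt18* counts was 2.22 in HET3 and 0.92 to 1.52 in the 4 other libraries with at least 15 counts of each.

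The other 2 keratins of this layer did not follow HET3. *Krt20*, of gut and urothelium, had 209, 97, 228, 137, 213 and 195 counts. *Krt23* had 206, 18, 340, 284, 34 and 20 counts, the split of the epidermal keratins. Summed, the 6 genes were at 7.38, 3.92 and 7.23 CPM in WT1 to WT3 and 7.16, 5.11 and 14.4 CPM in HET1 to HET3.

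Markers of mesothelium, the simple epithelium lining body cavities, and of skeletal muscle were also highest in HET3. All 5 of 5 mesothelial markers were at least 2 times as high in HET3 as in every other library, and their sum was 35.3 CPM there against 3.11 to 4.31 CPM elsewhere. The most abundant was *Lrrn4*, with 347, 264, 318, 364, 365 and 1132 counts. *Upk3b* had 16, 71, 24, 59, 0 and 1829 counts, and *Msln* (mesothelin) had 10, 43, 33, 43, 23 and 947. The 8 skeletal muscle markers, led by *Myh4* and *Acta1*, summed to 1790, 7180 and 2710 CPM in WT1 to WT3 and 3000, 721 and 41000 CPM in HET1 to HET3. None of the mesothelial or muscle markers passed the adjusted threshold between genotypes in edgeR, and their part in the *Krt7*, *Krt8* and *Krt18* levels was not tested.

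**Figure D3:**
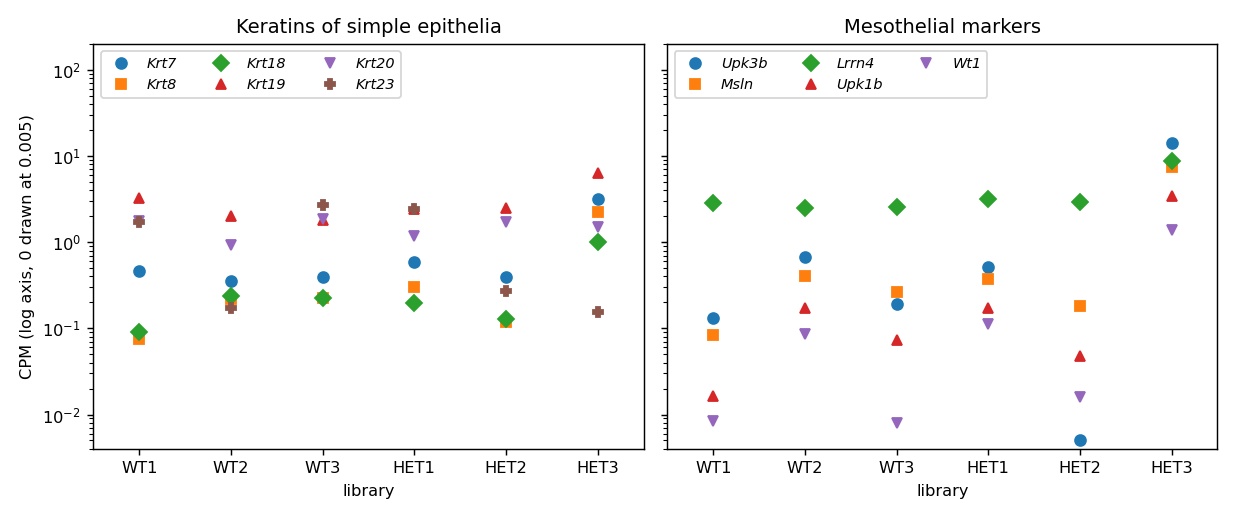
CPM (log axis, 0 drawn at 0.005) of the 6 keratins of simple epithelia (left) and the 5 mesothelial markers (right) in each library, with 1 symbol per gene. *Krt7*, *Krt8*, *Krt18* and *Krt19* and all 5 mesothelial markers are highest in HET3, while *Krt20* is not.

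A few members varied less over the libraries. Of those with at least 100 counts, *Epcam*, *Krt20*, *Krt36*, *Krt80* and *Krt222* were the 5 that stayed within 3-fold, although *Epcam*, *Krt36* and *Krt80* were still highest in WT1, WT3 and HET1. *Krt222*, a keratin-like gene, had 744, 569, 548, 608, 541 and 820 counts. *Krt4*, of mucosal epithelia, had 96 counts in all, at 10 to 21 per library. The members with under 50 counts and no value given above were *Krt12*, *Krt13*, *Krt24* and *Krt90*, with 6 to 12 counts each.

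Between genotypes, no member was called. The comparison of HET with WT asked which genes differ in IWAT of heterozygous mice, with calls limited to genes changed by more than 1.5-fold whose adjusted *P* was below 0.05. By this rule 0 of 60 members were called in edgeR, where 3 of 32664 genes were (0.00918%). DESeq2 called 0 of the 27 members to which it gave an adjusted *P* and 98 of 16078 genes (0.61%). Limma-voom called 0 of 60 members and 4 of 32664 genes (0.0122%). At an unadjusted *P* under 0.05, edgeR gave 2 of 60 members against 4.77% of all genes (1 higher in HET against 1.68% and 1 lower against 3.09%). DESeq2 gave 2 against 4.85%, and limma-voom 1 against 5.38%. DESeq2 gave no *P* for some members, *Dsp* and *Krt81* among them, and its share counts genes without one as not passing. Its 2 members were *Krt7* and *Krt8*, and that of limma-voom was *Krt24*.

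The 2 members at that level in edgeR moved in opposite directions. *Krt24* had 5, 2 and 4 counts in WT1 to WT3 and 1, 0 and 0 in HET1 to HET3, with a log2 fold change of -3.09 (SE 1.52, adjusted *P* = 0.783 in edgeR). It was the only member whose groups did not overlap, with 1 of 60 below WT (5.75% of all genes) and 0 of 60 above (5.09%), and it rests on 12 counts. *Krt7* was at 0.404 ± 0.0581 CPM in WT and 1.39 ± 1.56 in HET (SD, n = 3), a log2 fold change of 1.78 (SE 0.73, adjusted *P* = 0.783 in edgeR). HET2 lay among the WT libraries for *Krt7*, and without HET3 the log2 fold change was 0.29.

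Fold changes were below 0 for most members, and none passed the adjusted threshold. The median log2 fold change was -0.66, with 49 of 60 members lower in HET, against a median of 0.01 and 47.9% of genes lower among all genes tested. For *Krt5* it was -2.08 (SE 2.07), for *Krt10* -1.99 (SE 1.07), for *Krt79* -1.74 (SE 0.73), for *Krt71* -0.67 (SE 2.25) and for *Krt81* -0.81 (SE 2.69). *Dsp* was at -1.34 (SE 1.88), *Cdh1* at -0.67 (SE 0.46), *Epcam* at -0.27 (SE 0.30) and *Trp63* at -0.08 (SE 0.38). *Krt8* was at 2.36 (SE 1.0) and *Krt18* at 1.27 (SE 0.79), and without HET3 they were at 0.29 and -0.18. Without WT1, *Krt10* was at -0.60 and *Krt79* at -0.92. Without WT3, direction turned to higher in HET for 26 of 60 members, *Krt71* and *Krt81* among them. Every member's adjusted *P* in edgeR was at least 0.783.

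Summed levels gave the same picture. All 60 members were at 342 ± 284 CPM in WT and 172 ± 228 CPM in HET (SD, n = 3), a log2 ratio of means of -0.99. The 44 genes of squamous epithelium and hair, keratins with *Dsp*, *Pkp1* and *Trp63*, were at 373, 20.9 and 571 CPM in WT1 to WT3 and 414, 20.4 and 22.3 CPM in HET1 to HET3, a log2 ratio of means of -1.08. The 14 genes grouped as simple-type epithelium were at 18.0, 7.97 and 18.3 CPM in WT and 16.7, 8.90 and 18.8 CPM in HET, a log2 ratio of means of 0.00. That group was mixed. *Cdh1*, its most abundant gene, *Cldn4* and *Krt23* were highest in WT1, WT3 and HET1, whereas *Krt7*, *Krt8*, *Krt18* and *Krt19* were highest in HET3. Its ratio without *Cdh1* was 0.28. For all members, squamous and hair genes and simple-type genes, the SD within a genotype was larger than the difference in means. No test was run on sums. With each mouse left out, the ratio ran from -3.07 to -0.32 for all members. It ran from -3.91 to -0.37 for squamous and hair genes and from -0.3 to 0.26 for simple-type genes.

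By layer, the median log2 fold change was -1.87 for the 8 suprabasal keratins, -1.51 for the 5 basal keratins, -0.67 for both the 9 inner root sheath and the 13 shaft keratins, and 0.96 for the 6 keratins of simple epithelia. For the epidermal layers 2 WT libraries and 1 HET library were high, and for the shaft 1 of each genotype was. No layer had a member called. The medians moved with single libraries: without WT3 they were 1.53 for the inner root sheath and 7.75 for the shaft, without HET1 they were -6.31 and -7.21, and without HET3 that of the simple keratins was 0.00. Without WT1 the suprabasal median was -0.67. The basal median ran from -7.97 without HET1 to -0.93 without HET2. Where the remaining libraries of a genotype were at 0, as for several sheath and shaft keratins without WT3 or without HET1, these fitted values depend on the prior count and are no measure of size.

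The comparison depended on HET1. Without it, 24 of the 58 members that kept a count had an unadjusted *P* under 0.05 in edgeR, against 5.2% of all genes, with 22 lower in HET (3.31% of all genes) and 2 higher (1.89%). *Krt5* then had a log2 fold change of -7.70 and *Dsp* -6.02 (adjusted *P* = 0.811 for both in edgeR), still with 0 members called after adjustment. Without WT1, 0 members had an unadjusted *P* under 0.05 in edgeR (3.27% of all genes), and the same held without HET3 (5.33%). There were 5 without WT2 (3.98%), 1 without WT3 (5.4%) and 3 without HET2 (5.45%). With WT1, WT3 and HET1 all left out, 1 WT library remained against 2 HET libraries, and 1 of the 48 members that kept a count had such a *P* (1.82% of all genes).

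**Figure D4:**
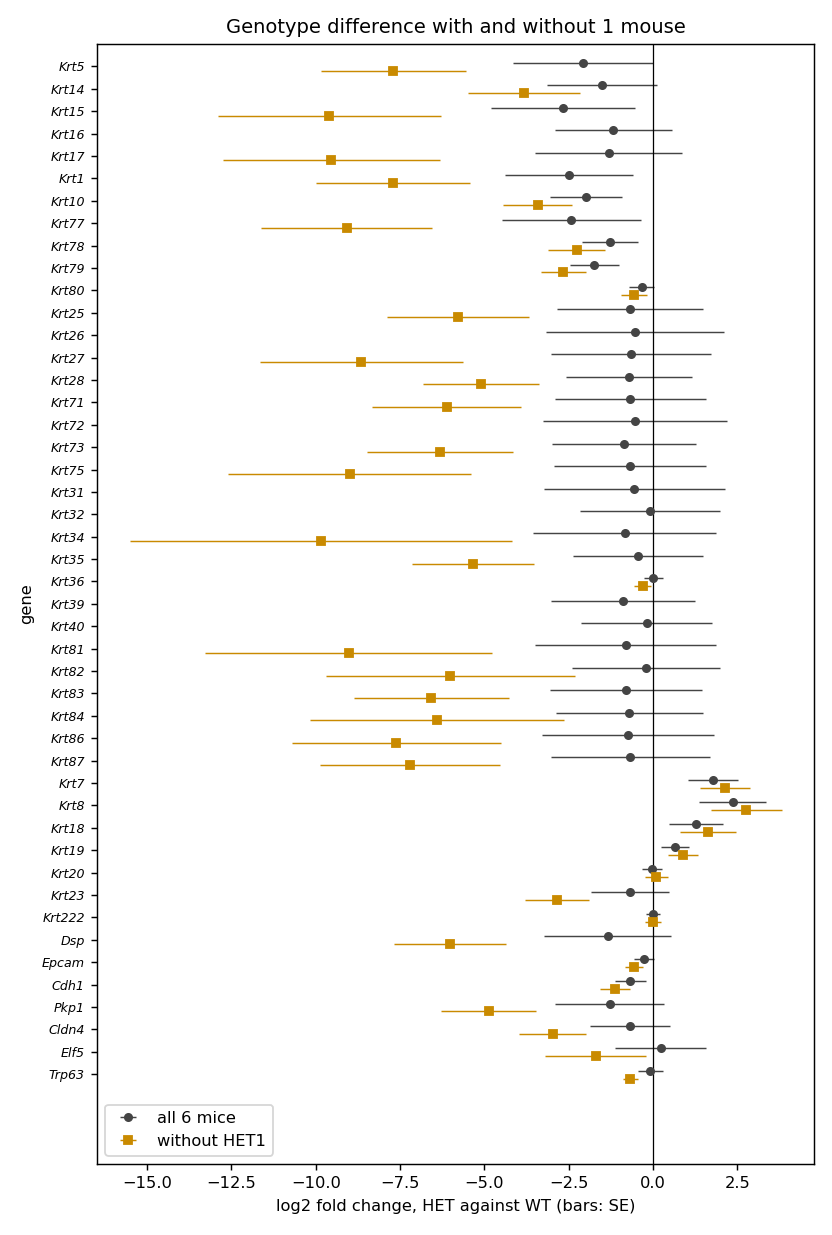
Log2 fold change (HET against WT, edgeR) of each member with at least 100 counts, with the standard error as bars, for all 6 libraries and without HET1. With all libraries most bars cross 0, and without HET1 the epidermal and hair genes shift to lower values. *Krt16*, *Krt26*, *Krt31*, *Krt32*, *Krt39*, *Krt40* and *Krt72* have no point without HET1, since HET2 and HET3 were then at 0 and no error could be fitted.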

How the data were processed

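The authors trimmed reads with cutadapt 4.8, aligned them with STAR 2.7.8a to GRCm38 and estimated gene counts with RSEM 1.3.3, per the labels' processing notes. The table the authors deposited holds expected counts for 55491 rows in 6 libraries, all whole numbers, and 4 transgene rows with 0 counts were left out. The study's methods name a 3′ mRNA kit and a recent Ensembl annotation, while the labels give another kit and GRCm38, so the annotation behind the table is in doubt, and strand was not given in the sources used here.

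HET was compared with WT by quasi-likelihood tests in edgeR 4.0.16 on the 32664 genes with at least 1 count, with TMM factors and Benjamini-Hochberg adjustment over all of them. CPM used TMM-scaled library sizes. Calls required an adjusted *P* under 0.05 and a linear fold change above 1.5. DESeq2 1.42.0, limma 3.58.1 (voom), other size factors, a count filter, a replicate block and leaving out each mouse were alternatives. With 3 libraries per genotype, *P* values measure only the spread between these mice.

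The members and lists were chosen with earlier results of these data known. The split of hair keratins into sheath and shaft, the keratin-associated and melanocyte lists, and the library patterns were chosen after the member values were seen. Named genes were the 11 non-keratins, each keratin with at least 50 counts, each member with an unadjusted *P* under 0.05, and of each other list the 3 genes with the most counts or those at 0 throughout. Members below that are named only to account for all 60. Promoters came from RefSeq and gene spans and exon lengths from GENCODE M21, which may differ from the annotation the authors used.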

Additional observations from a re-analysis of the deposited data

How the results depend on the processing

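Depth limits members with few counts, and 3 mice per genotype limit every call. No member was called with DESeq2, limma-voom, DESeq2 size factors, filterByExpr, the replicate block or each mouse left out. A fit without WT1, WT3 and HET1, the libraries where members were high, was added after seeing the data. It leaves 1 WT library, assumed to vary like the HET libraries, so it cannot decide calls and only its fold changes are given. Genes called between genotypes numbered 3, against 98 with DESeq2 and 1 to 11 with each mouse left out. Of the fits with 1 mouse left out, the one without WT2 called 1 gene and the one without HET3 called 11. Members with an unadjusted *P* under 0.05 numbered 2 in edgeR. They numbered 1 with limma-voom, 0 with filterByExpr and 0 to 24 with each mouse left out (24 without HET1).

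Of members with a fitted value, direction turned for 26 of 60 without WT3 and for 3 to 11 with each other mouse left out. It turned for 25 of 48 without WT1, WT3 and HET1 and for 8 of 60 with limma-voom. With DESeq2, DESeq2 size factors or filterByExpr (37 members) it turned for 0. Direction was not counted as turned where a value rounded to 0 in either fit, as for *Krt36* with DESeq2. Among the genes whose fold changes the text compares, it turned for *Krt18* without HET3 (-0.18, on the log2 scale here and below), *Krt5* (1.23) and *Dsp* (2.02) without WT1, WT3 and HET1, *Krt71* without WT3 (1.53) or without WT1, WT3 and HET1 (8.89), and *Krt81* with limma-voom (0.90), without WT3 (12.53) or without WT1, WT3 and HET1 (4.31). With each mouse left out, the ranges were -0.18 to 1.71 for *Krt18*, -6.12 to 1.53 for *Krt71*, -9.03 to 12.53 for *Krt81* and -0.67 to 0.22 for *Trp63*, which turned to 0.06 without WT1, 0.22 without HET2 and 0.06 without HET3. Where the remaining WT libraries were at 0, as for *Krt81* without WT3 and for both genes without WT1, WT3 and HET1, the fitted value depends on the prior count and is no bound. Other causes were not tested. The log2 ratio of summed CPM for the squamous and hair genes ran from -3.91 (without HET1) to -0.37 (without WT3) with each mouse left out, and for all members from -3.07 to -0.32. Without WT1, WT3 and HET1 it was 0.03 for squamous and hair genes, 0.24 for all members and 0.80 for simple-type genes. *Ebf2* kept its direction throughout, at -0.86 to -0.77 with each mouse left out, and its adjusted *P* in edgeR was 0.0423 without HET3, up to 0.369 with each other mouse left out, and 0.502 with the replicate block.

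No source used here ties same-numbered libraries to each other. Their deviations from genotype means correlated at 0.335, 0.059 and -0.248 over 20765 genes, and the closest pair was WT3 with HET1 (0.425). HET2 was closest to its own number, and HET1 and HET3 were not. These correlations cannot decide whether same-numbered mice shared a litter or batch, since the libraries also differed in keratin and muscle gene levels. With the replicate block, 2 genes were called, and 3 members had an unadjusted *P* under 0.05 (3.92% of all genes), namely *Krt10*, *Krt14* and *Krt79* and neither of the 2 in the fit without it. The fitted log2 fold change turned for 14 of 60 members, *Krt71* (0.87) and *Krt81* (2.59) among them.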

Other observations

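Pigment cell genes, a list chosen after the member values were seen, also had their 3 highest libraries in WT1, WT3 and HET1. The 5 genes summed to 6.14, 1.66 and 6.42 CPM in WT1 to WT3 and 5.80, 1.97 and 1.31 CPM in HET1 to HET3, and 5 of 5 had those libraries highest. The most abundant was *Dct*, an enzyme of melanin synthesis, with 356, 63, 235, 240, 117 and 48 counts. No gene of this or the following lists was called between genotypes in edgeR.

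Sebaceous genes followed that split in part. The 4 sebaceous genes summed to 9.01, 6.83 and 5.25 CPM in WT1 to WT3 and 7.92, 3.03 and 6.58 CPM in HET1 to HET3, a sum carried by *Mc5r*, which did not follow it (879, 672, 519, 797, 334 and 802 counts). Of the 3 with at least 100 counts, the other two, *Scd3* (160, 23, 94, 78, 21 and 25 counts) and *Awat2* (30, 25, 32, 35, 23 and 16), had WT1, WT3 and HET1 highest by CPM. Langerhans and dendritic cell genes, *Cd209a* and *Cd207*, summed to between 8.59 and 10.3 CPM. Lymph node genes, led by *Glycam1*, ranged from 634 CPM in WT1 to 881 CPM in HET2. Mammary luminal genes, led by *Aldh1a3*, were at 28.0 to 43.2 CPM, and the 5 sex-linked genes at 313 to 333 CPM.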
